A study of Mus musculus with 4 samples.

Results

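Choroid plexus epithelial cells were 85 of 6281 cell barcodes in single-cell RNA sequencing of the mouse hippocampus. They were selected on measured counts of unique molecular identifiers (UMIs, each standing for 1 captured RNA molecule). A barcode was taken when it held at least 200 detected genes and at least 50 UMIs of Ttr, which encodes transthyretin. It could hold at most 2 UMIs of the ependymal genes Tmem212 and Ccdc153 together. It could also hold at most 2 UMIs over P2ry12, Cx3cr1, Mog, Pdgfra and Cldn5, which mark microglia, oligodendrocytes, their precursors and endothelial cells. Levels of these 8 genes are therefore given as a description of the choice and are not results. The ependymal barcodes compared below had at least 200 genes and at least 3 UMIs of Tmem212 and Ccdc153 together. They met the same limit on P2ry12, Cx3cr1, Mog, Pdgfra and Cldn5.

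The choroid plexus is a folded epithelium that hangs into the brain ventricles and secretes the cerebrospinal fluid. Its cells pump ions and water from blood to ventricle, carry vitamins and hormones the same way, and release transthyretin, the thyroid hormone carrier of the fluid, in large amounts. The tissue lies against the hippocampus along the choroidal fissure of the lateral ventricle.

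The study compared Dp(10)2Yey mice with wild-type (WT) littermates in a model of Down syndrome. Dp(10)2Yey mice were hemizygous for an engineered duplication of the part of mouse chromosome 10 from Prmt2 to Pdxk and so carried an additional copy of each gene there, while WT mice carried the normal number. All 4 mice were male, 3 months old and backcrossed to C57BL/6J, and no treatment is stated. Hippocampi were microdissected on 2 consecutive days, with 1 mouse of each genotype on each day, and were dissociated with enzymes before 3′ libraries were made on the 10x platform. Each genotype had 2 libraries, numbered replicates 1 and 2, and the labels do not state which replicates were prepared on the same day.

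The WT libraries held 3002546 UMIs (replicate 1) and 6848466 UMIs (replicate 2), and the Dp(10)2Yey libraries 5112759 UMIs (replicate 1) and 9612011 UMIs (replicate 2). Among WT barcodes, choroid plexus cells were 9 of 1022 and 23 of 1686, and among Dp(10)2Yey barcodes 17 of 1355 and 36 of 2218. Their UMIs summed to 24767, 47615, 31319 and 142175 in the same order. All levels below are CPM, the UMIs of a gene per 1000000 UMIs of these sums, from tags at the 3′ end that need no division by gene length, and values by library are always given in the order WT 1 and 2, then Dp(10)2Yey 1 and 2.

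Dp(10)2Yey replicate 2 stood apart from the other 3 libraries. Its choroid plexus cells had a median of 3134 UMIs, against 1680, 1320 and 1264, and it held 142175 of the 245876 UMIs from these cells. Mitochondrially encoded genes took 2.4% of the UMIs of its choroid plexus cells, against 6.81%, 9.51% and 5.69%. Over all barcodes with at least 200 genes the median mitochondrial share was also lowest in this library, at 3.42% against 5.72%, 5.69% and 5.89%. Genotype results are given with and without this library. Between pairs of libraries 8 barcodes were shared, and 0 of these belonged to choroid plexus cells.

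Ttr took 13%, 19.5%, 18.9% and 9.84% of the UMIs of the chosen cells, as the rule required it to be high. The lowest chosen cells had 50, 51, 52, 54 and 57 UMIs of Ttr, and the barcodes just outside the threshold had 49, 47, 47, 45 and 43. Between 20 and 49 UMIs of Ttr there were 19 barcodes that otherwise met the rule, and 17 chosen cells lay between 50 and 99. A single barcode with 843 UMIs of Ttr was left out because it held 43 UMIs of the microglial, oligodendrocyte and endothelial markers.

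The other 5 marker genes of the cell type were not used in the choice and were high in all 4 libraries. The transcript 2900040C04Rik reached 2059, 3423, 3097 and 3024 CPM, with 0 CPM in 104 ependymal barcodes and 9.74 CPM in the 6196 barcodes outside the rule, which include the ependymal ones. Calml4, which encodes a calmodulin-like protein, reached 1373, 1218, 1213 and 1955 CPM, but it also stood at 555 CPM in ependymal barcodes. Kl encodes klotho, a coreceptor for fibroblast growth factor hormones, and lay at 363, 609, 543 and 324 CPM against 1.96 CPM outside the rule. Rdh5, a retinol dehydrogenase, lay at 283, 462, 575 and 528 CPM and Prcd at 363, 294, 383 and 394 CPM. The lowest library of each gene was far above the 7.02 CPM of Rdh5 and 1.96 CPM of Prcd outside the rule. The genotypes overlapped for 2900040C04Rik, Calml4 and Kl, while both Dp(10)2Yey libraries were slightly above both WT libraries for Rdh5 and Prcd, an arrangement found for 24.9% of all 578 genes tested between genotypes.

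Every chosen cell held a UMI of at least 1 of these 5 genes, 77 held at least 2 of them, and 16 held all 5. Each barcode was thinned at random to 500 UMIs so that depth was equal. After thinning, 2900040C04Rik was detected in 55.3% of chosen cells and in 0.533% of other barcodes, and Calml4 in 48.2% and 0.936%. Kl was detected in 27.1% and 0.113%, Rdh5 in 18.8% and 0.484%, and Prcd in 8.24% and 0.145%. The markers of the label were thus present in the cells that Ttr chose, and no test was run because the contrast was made by the rule. Outside the rule 27 barcodes held at least 3 UMIs of 2900040C04Rik, against 51 chosen cells, and 26 of those 27 had fewer than 50 UMIs of Ttr.

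**Figure D1:**
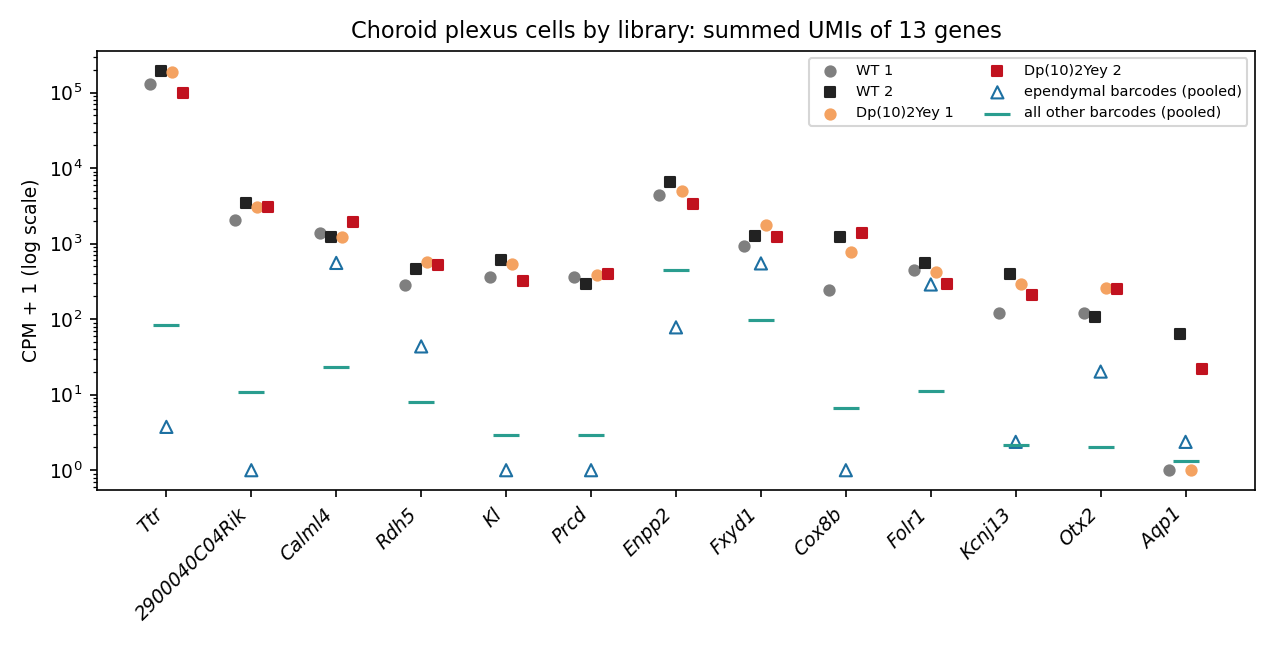
Level of 13 marker and other choroid plexus genes (CPM with 1 added, log axis) in the choroid plexus cells of each of the 4 libraries, beside the pooled ependymal barcodes (triangles) and all other barcodes pooled (bars). Kcnj13 lies between 121 and 399 CPM in the 4 libraries and at 1.15 CPM in all other barcodes.

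Among 26 genes for proteins secreted into the cerebrospinal fluid, 22 had a UMI in the choroid plexus cells. Enpp2, which encodes autotaxin, the enzyme that makes lysophosphatidic acid, reached 4441, 6532, 5045 and 3383 CPM. Igfbp2, a binding protein of insulin-like growth factors, reached 767, 1197, 1086 and 401 CPM, and Sostdc1, a secreted antagonist of BMP and Wnt signals, 323, 252, 543 and 260 CPM. Enpp2 was the most abundant gene of the list, and Dp(10)2Yey replicate 2 was lowest for Enpp2 and Igfbp2. Ptgds, the prostaglandin D synthase of the cerebrospinal fluid, lay at 1252, 1764, 1788 and 1343 CPM, below its 3422 CPM in all other barcodes. Cst3, which encodes the protease inhibitor cystatin C, lay at 2584, 3339, 1884 and 1379 CPM, against 28387 CPM in all other barcodes.

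Ion transport was represented by 25 of 33 listed genes, at 5935, 5544, 5843 and 5149 CPM in sum. Fxyd1, a regulator of the sodium pump, was the most abundant at 929, 1281, 1788 and 1224 CPM. The inward rectifier potassium channel gene Kcnj13 stood at 121, 399, 287 and 211 CPM, with 1.37 CPM in ependymal barcodes. The chloride channel gene Clic6 stood at 565, 315, 224 and 155 CPM, with 5.50 CPM in ependymal barcodes. Kcnj13 overlapped between genotypes, while both WT libraries were above both Dp(10)2Yey libraries for Clic6, as for 6.92% of all 578 genes tested. Cab39l and Stk39, partners in the kinase pathway that controls sodium, potassium and chloride cotransport, reached 939 and 329 CPM over all chosen cells, against 31.4 and 33.2 CPM in all other barcodes. Trpm3, a cation channel, reached 256 CPM. Car2, a carbonic anhydrase that supplies bicarbonate, lay at 992 CPM and did not stand out from the 1053 CPM of all other barcodes.

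Some textbook transporters of this epithelium were barely captured. Aqp1, the apical water channel, had 6 UMIs over the 85 cells, and the sodium-coupled bicarbonate transporter Slc4a5 had 16. The cotransporter gene Slc12a2 had 12 UMIs, or 48.8 CPM, less than its 220 CPM in all other barcodes. The tight junction gene Cldn2 had 8 UMIs. Aqp1 was nonetheless rarer elsewhere, with a UMI in 5.88% of choroid plexus cells and 0.0484% of other barcodes.

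Genes that carry vitamins, nutrients and hormones included Folr1, the folate receptor through which folate reaches the cerebrospinal fluid, at 444, 546, 415 and 295 CPM. Folr1 was at 10.0 CPM in all other barcodes and was also present in ependymal barcodes, at 287 CPM. Of 35 genes of this list, 29 had a UMI, and the thyroid hormone transporter gene Slco1c1 had 29. Among the receptors, Prlr for prolactin lay at 485, 252, 192 and 134 CPM and the serotonin receptor gene Htr2c had 20 UMIs. The 2 WT libraries were above the 2 Dp(10)2Yey libraries for Prlr, at 12, 12, 6 and 19 UMIs, an arrangement found for 6.92% of all 578 genes tested.

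Metal handling genes summed to 15989, 16654, 16635 and 19828 CPM over 20 genes, near the 16121 CPM of all other barcodes and below the 30048 CPM of ependymal barcodes. The ferritin heavy chain gene Fth1 reached 6460, 8149, 7216 and 7737 CPM, close to its 8170 CPM in all other barcodes. Mt3, a metallothionein that binds zinc and copper, reached 5087, 4830, 4438 and 6654 CPM, and Atox1, the copper chaperone, 1978, 1491, 2139 and 2694 CPM. Atox1 was at 173 CPM in ependymal barcodes and 326 CPM in all other barcodes, whereas Mt3 was higher in ependymal barcodes, at 13653 CPM.

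Epithelial structure was carried by the keratin gene Krt18 at 162, 210, 319 and 521 CPM and by Ezr, which encodes ezrin of the microvilli, at 363, 294, 95.8 and 359 CPM. Krt18 was 4.51 CPM in all other barcodes. Both Dp(10)2Yey libraries were above both WT libraries for Krt18, at 4, 10, 10 and 74 UMIs, as for 24.9% of all 578 genes tested. Ezr overlapped between genotypes. Among the 19 listed transcription factors, Otx2, which is needed for the choroid plexus to form, was the most abundant, at 121, 105, 255 and 253 CPM. Msx1, a homeobox factor of the dorsal midline, followed at 121, 126, 224 and 239 CPM. Otx2 stood at 19.2 CPM in ependymal and 1.02 CPM in all other barcodes, and Msx1 at 115 and 8.97 CPM.

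Promoter windows of the choroid plexus genes were searched on both strands for TAATCC, which reads GGATTA on the other strand and is the core bound by Otx factors. They were searched likewise for GTTGCC, which reads GGCAAC on the other strand and is a core bound by the RFX factors of ciliated cells. The 250 bases before each start were taken from RefSeq on GRCm38.p6, where 30 of 36 choroid plexus genes matched 43 promoters. The Otx letters lay in 1 of these 43 promoters (2.33%) and in 6.25% of 32851 promoters of all genes. The RFX letters lay in 6 of the 43 (14%), among them 2 overlapping Otx2 windows that share 1 match, and in 10.4% of all promoters. The TATA box letters TATAAA, or TTTATA on the other strand, lay in 5 of the 43 (11.6%) and in 12.4% of all promoters. The windows of Otx2 and Kcne2, a potassium channel subunit at 126 CPM in the chosen cells and 0 CPM in ependymal barcodes, are shown because Otx2 held both sets of letters at different starts and Kcne2 is an example of a channel gene with the RFX letters. The first Otx2 window is chr14:48665110-48665359 on the minus strand with GGATTA in capitals. The second is chr14:48667509-48667758 on the minus strand with GTTGCC in capitals, and it overlaps a further Otx2 window, chr14:48667645-48667894, that is not shown. That of Kcne2 is chr16:92292139-92292388 on the plus strand with GGCAAC in capitals.
Otx2 first: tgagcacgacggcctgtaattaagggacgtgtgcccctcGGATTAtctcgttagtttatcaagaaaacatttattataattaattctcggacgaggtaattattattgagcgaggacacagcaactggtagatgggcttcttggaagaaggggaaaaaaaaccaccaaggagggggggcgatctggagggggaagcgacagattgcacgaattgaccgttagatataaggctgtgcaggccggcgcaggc
Otx2 second: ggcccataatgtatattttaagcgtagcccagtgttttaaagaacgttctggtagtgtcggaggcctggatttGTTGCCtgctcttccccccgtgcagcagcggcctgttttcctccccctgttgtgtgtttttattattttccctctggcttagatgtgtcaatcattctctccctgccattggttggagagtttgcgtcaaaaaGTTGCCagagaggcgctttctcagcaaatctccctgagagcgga
Kcne2: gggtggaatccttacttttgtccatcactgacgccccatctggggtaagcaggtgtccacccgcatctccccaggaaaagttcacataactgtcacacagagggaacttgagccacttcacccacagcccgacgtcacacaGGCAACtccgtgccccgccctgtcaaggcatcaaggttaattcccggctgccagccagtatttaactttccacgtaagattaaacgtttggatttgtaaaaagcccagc
These matches are letters in a window, and binding was not measured.

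Nuclear genes of the respiratory chain and ATP synthase had 33745 UMIs over all chosen cells, beside 32440 of Ttr and 31532 of ribosomal proteins. Their 89 genes summed to 128437, 103938, 114435 and 154957 CPM, against 27005 CPM in ependymal barcodes and 24624 CPM in all other barcodes. Each library lay far above both of these, and the genotypes overlapped. Cox8a, a subunit of cytochrome c oxidase, reached 6662, 5986, 6833 and 9087 CPM against 1177 CPM in all other barcodes. Atp5g1, a subunit of the ATP synthase ring, reached 4926, 3087, 3927 and 5585 CPM against 302 CPM. Chchd10, a protein between the mitochondrial membranes, had 1030 UMIs and was 19.3-fold above all other barcodes after 10 CPM was added to both, but its 4189 CPM compared with 2365 CPM in ependymal barcodes. The 13 mitochondrially encoded genes differed from this, with 68075, 95096, 56930 and 23999 CPM against 57680 CPM in all other barcodes.

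Cytochrome c oxidase isoforms known from other organs stood among the genes with the highest fold over all other barcodes. Cox8b, the isoform of heart and skeletal muscle, lay at 242, 1239, 766 and 1386 CPM, was at 0 CPM in ependymal barcodes, and led the genes outside the 21 lists of choroid plexus and cell type genes at 74.5-fold. Cox6b2, known from testis, lay at 606, 588, 415 and 577 CPM and at 21.3-fold. Cox7a1, another muscle isoform, lay at 404, 147, 128 and 317 CPM and at 17.8-fold. All 3 were detected in each library, and Cox8b varied most, with WT replicate 1 lowest at 6 UMIs. Hemk1, a methyltransferase gene, was at 42.4-fold, 1500015O10Rik at 33.5-fold, Prr32 at 30.3-fold, and Fabp3, the heart fatty acid binding protein, at 18.4-fold. Ependymal barcodes held some of these RNAs too, with 625 CPM of 1500015O10Rik, 126 CPM of Cox6b2 and 77.0 CPM of Cox7a1. These folds describe what the rule separated and were not tested. At 500 UMIs per barcode, Cox8b was detected in 24.7% of choroid plexus cells and 0.371% of other barcodes.

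Markers of other cell types were low in the choroid plexus cells, apart from those of ependymal cells. The ependymal list summed to 1391 CPM, against 729 CPM in all other barcodes. The 15 microglial genes summed to 404, 672, 607 and 267 CPM, against 22139 CPM in all other barcodes, with Tyrobp the most abundant at 23 UMIs and Tmem119 and Ccl3 at 0. The 10 oligodendrocyte genes summed to 242, 1806, 415 and 56.3 CPM, against 15368 CPM, with Mbp the most abundant and Mag, Cldn11 and Opalin at 0. Mog was at 0 too, but the rule had capped it, as it capped P2ry12, Cx3cr1, Pdgfra and Cldn5. The median cell of every library held 0 UMIs of either list. A few cells held more: 1 cell of WT replicate 2 held 64 oligodendrocyte UMIs, and single cells of WT replicate 2, Dp(10)2Yey replicate 1 and Dp(10)2Yey replicate 2 held 28, 19 and 23 microglial UMIs. The 11 astrocyte genes summed to 277 CPM with Aqp4, Gja1, Gjb6 and Ntsr2 at 0, the 10 endothelial genes to 89.5 CPM, and the 10 neuronal genes to 69.1 CPM. Doublet scores called 0 of the 85 cells.

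The choroid plexus cells varied widely in how much of their RNA was Ttr. Ttr took from 1.09% to 43.6% of a cell's UMIs, with a median of 17.0%, and mitochondrially encoded genes took from 0.0128% to 27.9%, with a median of 4.07%. The 2 shares moved together: Spearman's rho was 0.78 over the 85 cells and 0.72, 0.78, 0.67 and 0.86 within the 4 libraries, with 9, 23, 17 and 36 cells. Cells of a library share its preparation, and both shares are parts of the same total, so these are descriptions. Ttr share and a cell's UMIs had a rho of -0.51 over all cells and of 0, -0.23, -0.36 and -0.55 within the libraries. This is partly fixed by the choice of cells, since a cell with a small Ttr share reached 50 UMIs of Ttr only with many UMIs in all.

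**Figure D2:**
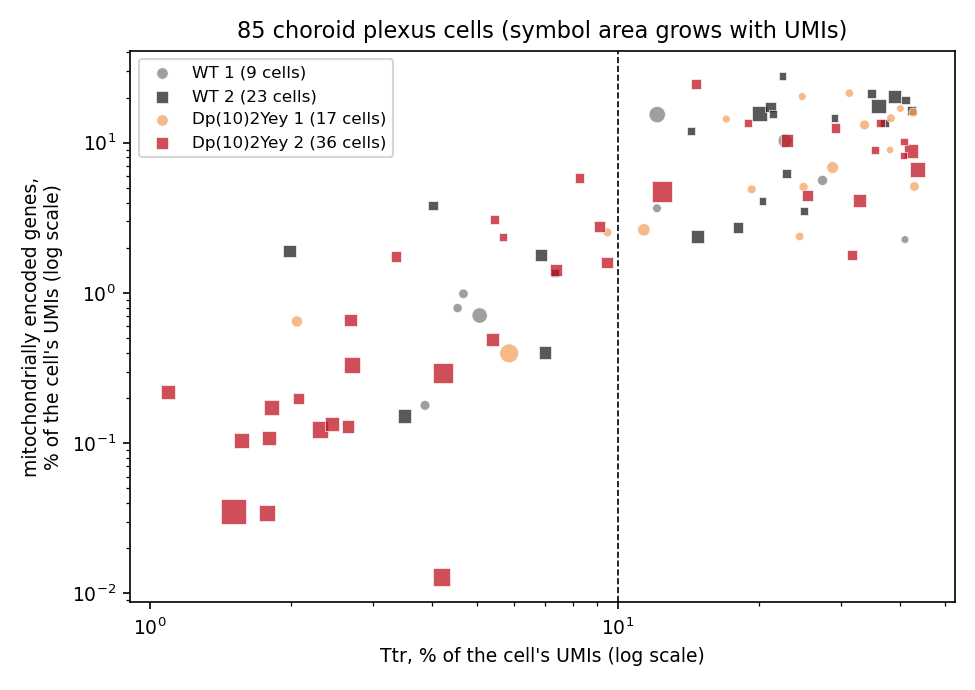
Share of each cell's UMIs from Ttr (horizontal, log axis, percent) and from mitochondrially encoded genes (vertical, log axis, percent) in the 85 choroid plexus cells, coloured by library, with symbol area growing with UMIs. The dashed line marks 10% Ttr, and all 23 cells with a mitochondrial share below 1% lie to its left.

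Ttr at 10% of UMIs was used to describe the ends of this range, and 5 cells lay between 8% and 12%, and the sides are given as ends of a range and not as cell types. Below 10% were 4, 6, 3 and 22 cells of the 4 libraries, which is 44.4%, 26.1%, 17.6% and 61.1% of their choroid plexus cells. At or above 10% were 5, 17, 14 and 14 cells. The lower side had a median of 0.490% mitochondrial UMIs and the upper side 10.3%. This difference in mitochondrial share stood in every library, with medians of 0.75%, 1.57%, 0.646% and 0.256% on the lower side and 5.61%, 15.6%, 11% and 8.85% on the upper. Median UMIs per cell were 3221 on the lower side and 1274.5 on the upper, but in WT replicate 1 they were 1599.5 and 1870, and the choice of cells bears on them as above. Of all 85 cells, 23 had fewer than 1% mitochondrial UMIs, or 44.4%, 8.70%, 11.8% and 41.7% by library, against 2.96%, 2.04%, 2.17% and 6.92% of other barcodes.

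RNAs of listed secreted proteins mostly went with Ttr along this range. With Ttr and mitochondrially encoded genes taken out of the totals, Enpp2 stood at 836 CPM in the 35 cells below 10% Ttr and 14399 CPM in the 50 cells above, a ratio of 17.0 with 10 CPM added to both, as in the ratios that follow. Bsg, the membrane glycoprotein basigin, stood at 330 and 4612 CPM, and Apoe, the main apolipoprotein of the brain, at 374 and 4642 CPM. Igfbp2 stood at 176 and 2177 CPM, Clu, which encodes clusterin, at 227 and 2496 CPM, and 1500015O10Rik, a small secreted protein gene, at 440 and 4597 CPM. These 6 had the highest ratios of the 342 genes with at least 100 UMIs, so their agreement between libraries was partly fixed by the choice. All 6 were higher on the upper side in each of the 4 libraries. So was Kl, at 213 and 1096 CPM, while Cst3 was higher there in 2 libraries and lower in 2. Of 12 secreted protein genes with at least 20 UMIs, 11 were higher on the upper side with a median ratio of 9.73, and of 7 nutrient and hormone transport genes, 6 with a median ratio of 8.40. Of 19 other choroid plexus epithelium genes, 14 were higher there with a median ratio of 5.93, and of 12 ion and water transport genes, 9 with a median ratio of 2.49. Over all 1418 genes with at least 20 UMIs, 447 were higher there, or 31.5%, with a median ratio of 0.824. These ratios pool the libraries, and Dp(10)2Yey replicate 2 held 22 of the 35 cells below 10% Ttr. By library the secreted protein list summed to 7434, 10410, 4746 and 3718 CPM below 10% Ttr. Above, it summed to 28153, 43142, 41215 and 43370 CPM, so the difference was smaller in both WT libraries.

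Markers of several other cell types were also higher in sum on the upper side, on the same scale. Oligodendrocyte genes summed to 44.0 CPM below 10% Ttr and 1629 CPM above, and by library to 0, 65.9, 0 and 50.1 CPM below and 582, 4567, 1100 and 120 CPM above, with WT replicate 2 far the highest. Astrocyte genes summed to 169 and 685 CPM, but to 209 and 194 CPM in WT replicate 1. Endothelial genes summed to 22.0 and 289 CPM and microglial genes to 323 and 837 CPM. Microglial genes ran the other way in both WT libraries, at 1047 and 1911 CPM below 10% Ttr and 0 and 161 CPM above. Apoe, Clu and Cst3 are made by other brain cells as well, and the part of such RNA in their values was not tested.

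Some markers differed less between the sides. The transcript 2900040C04Rik stood at 3924 CPM below 10% Ttr and 3135 CPM above, Calml4 at 2223 and 1598 CPM, and Rdh5 at 550 and 715 CPM. Car2 stood at 1203 and 1218 CPM. These 4 genes, picked after their values were seen, lay within 2-fold of equal, unlike Kl. Nuclear genes of the respiratory chain mostly lay higher on the lower side, 72 of 81 with a median ratio of 0.718. Ribosomal protein genes were divided, 42 higher and 39 lower on the upper side, with a median ratio of 1.02. Of 342 genes with at least 100 UMIs, 10 were at least 4-fold higher on the upper side and 0 were at least 4-fold lower. The cause of this range was not tested.

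**Figure D3:**
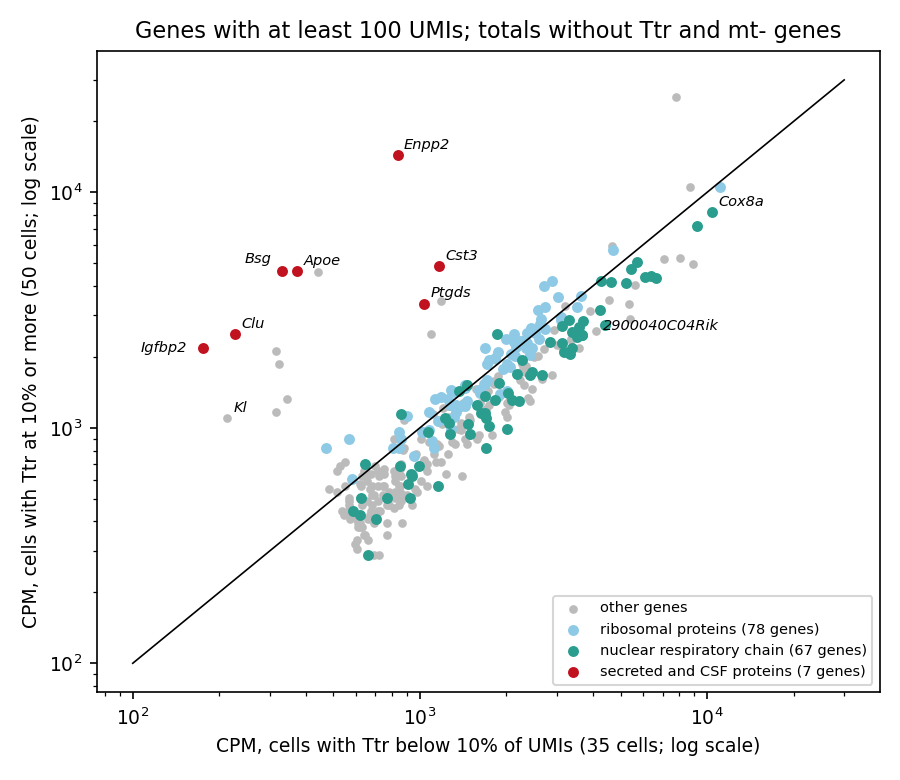
Level of each gene with at least 100 UMIs in choroid plexus cells below (horizontal) and above (vertical) 10% Ttr, both in CPM on log axes with Ttr and mitochondrially encoded genes out of the totals. Enpp2, at 836 and 14399 CPM, lies farthest above the line of equal level, and 2900040C04Rik, at 3924 and 3135 CPM, lies close to it.

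Genotype was compared first in the number of choroid plexus cells. Of WT barcodes they made up 0.881% (95% exact Clopper-Pearson interval 0.403% to 1.67%) in replicate 1 and 1.36% (0.867% to 2.04%) in replicate 2. Of Dp(10)2Yey barcodes they made up 1.25% (0.733% to 2.00%) in replicate 1 and 1.62% (1.14% to 2.24%) in replicate 2. The genotypes overlapped, with means of 1.12% ± 0.342 (SD, n = 2) in WT and 1.44% ± 0.261 (SD, n = 2) in Dp(10)2Yey, and an exact two-sided permutation test gave p = 0.667, where 0.33 is the smallest p this design allows. The difference was 0.316 percentage points, and 0.132 when Dp(10)2Yey replicate 2 was left out. Ttr's share of UMIs averaged 16.3% ± 4.59 (SD, n = 2) in WT and 14.4% ± 6.41 (SD, n = 2) in Dp(10)2Yey. The share got no permutation test because Ttr chose the cells, and Ttr's entry among the 578 genes fitted below is not read as a result. The difference, Dp(10)2Yey minus WT, was -1.91 percentage points, and it turned to 2.63 when Dp(10)2Yey replicate 2 was left out and to 1.34 when WT replicate 2 was.

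RNA from the duplicated segment was higher in the choroid plexus cells of both Dp(10)2Yey mice. The segment, chr10:76207222-78464975 on GRCm38, holds 62 annotated protein-coding genes, of which 61 were in the count files and 24 had a UMI in these cells. Their summed level was 1131 and 903 CPM in the WT libraries and 1724 and 1646 CPM in the Dp(10)2Yey libraries. The groups did not overlap, also without Dp(10)2Yey replicate 2, an arrangement found for 24.9% of all 578 single genes tested. The sums rested on 28, 43, 54 and 234 UMIs. The ratio of means was 1.66, from 1017 ± 161 CPM (SD, n = 2) to 1685 ± 55.4 CPM (SD, n = 2). In all other barcodes the same sum was 1320, 1350, 2170 and 1962 CPM, a ratio of 1.55. In the choroid plexus cells at or above 10% Ttr it was 818, 668, 907 and 1347 CPM, from 12, 21, 17 and 52 UMIs, a ratio of 1.52. Only Cstb, which encodes the protease inhibitor cystatin B, had enough UMIs to be fitted by itself, at 444, 231, 479 and 528 CPM. Its log2 fold change was 0.50 (SE 0.38, edgeR adjusted p = 0.965), and it was 0.63 when Dp(10)2Yey replicate 2 was left out. It was 0.82 without WT replicate 1, 0.15 without WT replicate 2, and 0.0091 after thinning to the smallest library. Without Cstb the ratio of the segment's sum was 1.74.

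Across single genes, 0 of 578 genes tested with edgeR (0%) passed an adjusted p of 0.01 between genotypes in the choroid plexus cells. At an unadjusted p of 0.05 there were 23 genes (3.98%), 12 higher (2.08%) and 11 lower (1.90%) in Dp(10)2Yey, and DESeq2 on the same sums called 0 genes and gave 10 at an unadjusted p of 0.05. For 144 genes (24.9%) the lower Dp(10)2Yey level exceeded the higher WT level, and for 40 genes (6.92%) the reverse held. With the replicate numbers as a block 0 genes passed. With crossed numbers as a block (replicate 1 of each genotype with replicate 2 of the other), a fit chosen after seeing the data, 11 passed. Leaving out Dp(10)2Yey replicate 2 or WT replicate 2 left 0 calls. Leaving out WT replicate 1 gave 6 calls, and leaving out Dp(10)2Yey replicate 1 also gave 6, with the remaining library of that genotype assumed to vary like the other genotype. Mbp, mt-Nd3 and mt-Nd5 were in both sets of 6, and Mbp was the only call when no filter on low counts was used, with a log2 fold change of -3.22.

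The genes of smallest unadjusted p with separated genotypes are given by value, and none of them passed the test in the fit with no block. S100a1, a calcium binding protein, lay at 808 and 861 CPM in WT and 1756 and 1744 CPM in Dp(10)2Yey, with a log2 fold change of 0.89 (SE 0.25, edgeR adjusted p = 0.959). Zcrb1, a splicing factor, lay at 80.8, 126, 351 and 401 CPM, with a log2 fold change of 1.57. Both Dp(10)2Yey libraries were nearly equal for S100a1. Timm17a, of the mitochondrial import channel, lay at 202, 105, 319 and 422 CPM, Ndufb4, of respiratory complex I, at 121, 252, 511 and 549 CPM, and Fkbp1a, an immunophilin, at 162, 210, 479 and 464 CPM. Their log2 fold changes were 1.24, 1.17 and 1.06. Without Dp(10)2Yey replicate 2 the log2 fold change was 1.07 for S100a1, 1.66 for Zcrb1, 1.32 for Ndufb4 and 1.31 for Fkbp1a, and Timm17a had too few UMIs to be fitted. Over the 4 fits that left out 1 library, Ndufb4 ranged from 0.76 (without WT replicate 1) to 2.07 (without WT replicate 2), and Zcrb1 from 1.26 to 2.17 in the same fits.

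In the other direction, mt-Nd5, a mitochondrially encoded subunit of complex I, lay at 1696 and 2457 CPM in WT and 862 and 731 CPM in Dp(10)2Yey. Its log2 fold change was -1.62 (SE 0.32, edgeR adjusted p = 0.720), and mt-Nd2, another such subunit, lay at 5532, 7225, 3768 and 1716 CPM with -1.37. Lars2, the mitochondrial leucyl-tRNA synthetase, lay at 485, 1512, 319 and 281 CPM with -2.08. WT replicate 2 was the highest library for all 3, and without it the log2 fold changes were -1.14 for mt-Nd5, -0.996 for mt-Nd2 and -0.79 for Lars2. In all other barcodes the log2 fold changes were -0.14 for mt-Nd5, -0.33 for mt-Nd2 and -0.95 for Lars2. Clic6 had a log2 fold change of -1.47. In the cells at or above 10% Ttr mt-Nd5 had -0.76 and mt-Nd2 -0.77. Cst3 had -1.06 over all cells, 0.65 in the cells at or above 10% Ttr and 0.034 in cells with at least 1% mitochondrial UMIs, so its direction turned with the cells taken. Without Dp(10)2Yey replicate 2, mt-Nd5 had a log2 fold change of -1.29, mt-Nd2 -0.76, Lars2 -1.74, Clic6 -0.86 and Cst3 -0.66. With the crossed replicate numbers as a block, a fit chosen after seeing the data, mt-Nd5, mt-Nd2, Lars2 and Cst3 passed, with log2 fold changes of -1.49, -1.45, -1.64 and -1.0047.

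**Figure D4:**
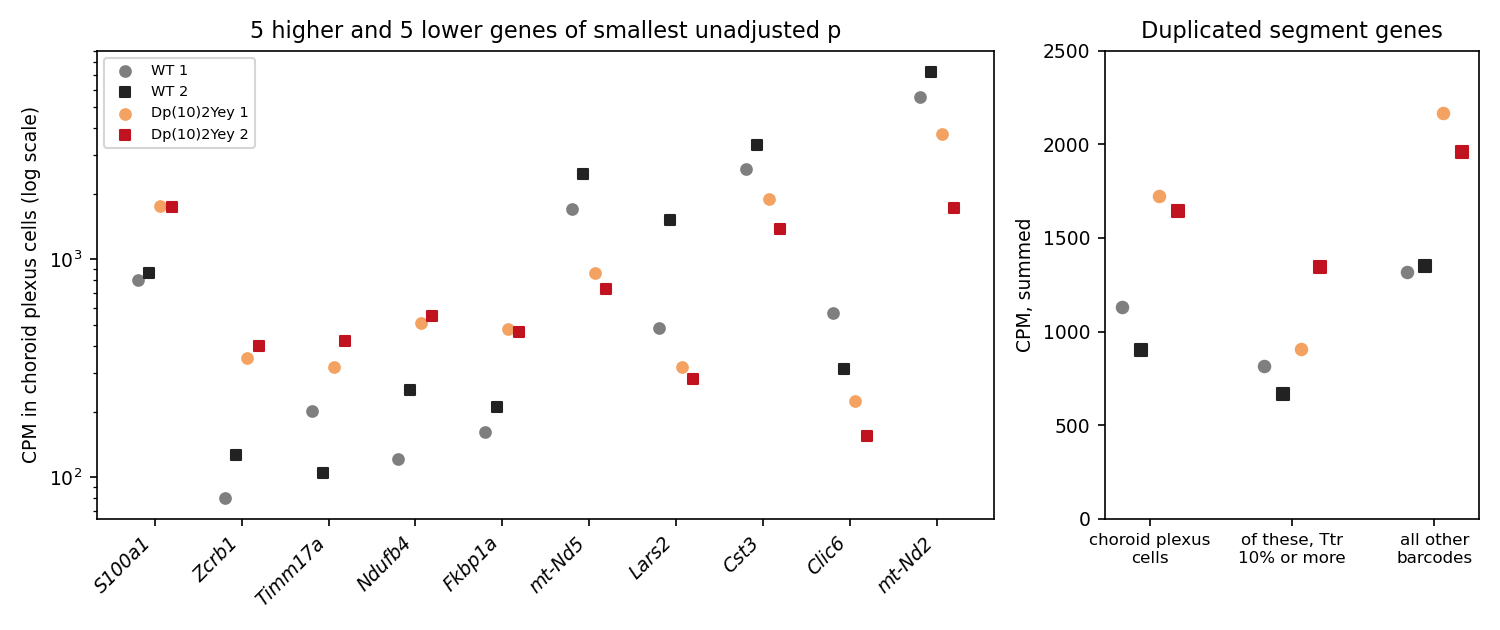
Left, level in the choroid plexus cells of each library (CPM, log axis) of the 5 higher and 5 lower genes of smallest unadjusted p, and right, summed CPM of the duplicated segment genes in all choroid plexus cells, in those at or above 10% Ttr and in all other barcodes. S100a1 lies at 808 and 861 CPM in WT and at 1756 and 1744 CPM in Dp(10)2Yey, and none of the single genes passed the test in the fit with no block.

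Gene lists were read by counts beside all 578 genes tested, of which 302 were higher and 276 lower in Dp(10)2Yey with a median log2 fold change of 0.03. Of 10 secreted protein genes tested, 1 was higher and 9 were lower, median -0.53, and 0 passed. In the cells at or above 10% Ttr, 7 of 9 were higher, median 0.31, and without Dp(10)2Yey replicate 2 the list gave 5 higher and 6 lower, median -0.13. When WT replicate 2 was left out it gave 5 higher and 5 lower, median -0.01, and when Dp(10)2Yey replicate 1 was, 1 higher and 11 lower, median -1.13. All 12 mitochondrially encoded genes tested were lower in Dp(10)2Yey, median -1.25, with 0 passing. Beside 23 of all 578 genes (3.98%) at an unadjusted p of 0.05 stood 5 of these 12. All 12 are parts of a library's mitochondrial share, 6.81%, 9.51%, 5.69% and 2.4% in the chosen cells, so they are not separate observations. They were also all lower in the cells at or above 10% Ttr, median -0.67, and without Dp(10)2Yey replicate 2, median -0.57, while without WT replicate 2 there were 10 of 11 lower, median -0.71. Of these genes 4 passed when WT replicate 1 was left out, and 5 when Dp(10)2Yey replicate 1 was. Since each day had 1 mouse of each genotype, the days follow either the replicate numbers or the crossed numbers. With the former as a block 0 passed. With the latter, a fit chosen after seeing the data, 9 passed, of 11 among all 578 genes. Which holds is not stated. Dp(10)2Yey replicate 2 held 22 of the 35 cells below 10% Ttr, and the part of this in the list values was not tested beyond those subsets.

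The remaining lists tested in the fit of all chosen cells from the 4 libraries were smaller in their differences or turned with the cells and libraries taken. Oligodendrocyte and astrocyte genes were not tested there. In fits with 1 or 2 oligodendrocyte genes the median was lower, from -1.88 (without Dp(10)2Yey replicate 2) to -4.90 (without WT replicate 1). In fits with 1 astrocyte gene it was higher, from 0.41 (without WT replicate 1) to 6.81 (without WT replicate 2). The whole oligodendrocyte list had 6, 86, 13 and 8 UMIs in the 4 libraries and the astrocyte list 4, 15, 19 and 30. These fold changes thus rest on few UMIs and are not read as a genotype result. Of the other choroid plexus epithelium genes, 6 of 8 were lower, median -0.56. The median was 0.04 in the cells at or above 10% Ttr and -0.20 without Dp(10)2Yey replicate 2. Of 75 nuclear respiratory chain genes, 46 were higher, median 0.07, and without Dp(10)2Yey replicate 2 there were 39 of 75, while in the cells at or above 10% Ttr 34 of 60 were lower, median -0.08. Of 79 ribosomal protein genes, 53 were lower, median -0.10, but without Dp(10)2Yey replicate 2 46 of 80 were higher, median 0.05, as were 41 of 77 in the cells at or above 10% Ttr.

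Transport lists rested on few genes. Of 6 ion transport genes, 4 were lower, median -0.28, and 6 of 8 without Dp(10)2Yey replicate 2, median -0.34, while 5 of 6 were higher in the cells at or above 10% Ttr. Of 3 nutrient and hormone transport genes, 2 were higher, median 0.28, and 1 of 3 without Dp(10)2Yey replicate 2, median -0.22. Of 5 metal handling genes, 4 were higher, median 0.35, and 3 of 6 without that library, median 0.17. In the edgeR fit of all 4 libraries with the low-count filter and no block, no transcription factor of the list had enough UMIs to be tested. In that fit 0 genes of any list passed. Without WT replicate 1, 2 transcription factors could be fitted and both were higher, median 0.746. The same held without Dp(10)2Yey replicate 1, with a median of 0.752.

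The genotype difference in choroid plexus cells was compared with that in all other barcodes by an interaction term in edgeR on sums from the same libraries. Of 11505 genes, 0 (0%) passed an adjusted p of 0.01, and 73 (0.635%) had an unadjusted p below 0.05. Without Dp(10)2Yey replicate 2 the counts were 0 and 49. Only 578 genes passed the low-count filter in the choroid plexus sums alone. Most of the 11505 thus had few UMIs in these cells and could hardly show a difference, which lowers both shares. No other tool was run for this term. Mbp, the myelin protein gene, was called with RLE size factors and when Dp(10)2Yey replicate 1 was left out, and no gene was called in the other fits of this term. Mbp had 6, 60, 7 and 5 UMIs in the 4 libraries, and 1 cell held 49 of the 60 in WT replicate 2.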

How the data were processed

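The authors deposited UMI count matrices made with Cell Ranger 3.0.2 on mm10, 1 for each of 4 10x libraries, and these deposited counts were used as they were. Barcodes with at least 200 genes were kept, 6281 of 6464, and choroid plexus cells were taken from them by the rule given above. UMIs were summed per library, since cells of 1 mouse are not replicates. The cells and the gene lists were chosen with earlier results of these data known.

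Genotypes were compared with edgeR 4.0.16 (TMM, filterByExpr, quasi-likelihood test) in R 4.3.3, with p-values adjusted by Benjamini-Hochberg over all genes tested and a threshold of 0.01. The interaction was fitted on 8 sums with the library as a term. The scripts were tested on simulated data. Doublets were called with Scrublet in scanpy 1.11.5, which called 49 of 6281 barcodes (0.780%).

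Genes were named by a rule: markers of the cell type, listed genes with at least 50 UMIs, tested genes of the duplicated segment, the 15 genes outside the 21 lists of choroid plexus and cell type genes of highest level and the 15 of highest fold (10 CPM added; the respiratory chain, mitochondrial and ribosomal groups are not among the 21), and, since fewer than 5 passed, the 5 genes of smallest unadjusted p in each direction whose genotypes did not overlap. Only some of the 15 genes of highest level and of the 15 of highest fold are named, and the choice among them was not by the rule. Listed genes with fewer UMIs and Mbp fall outside that rule and were named after their values were seen.

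Alternatives were RLE size factors, DESeq2 1.42.0, no filter on low counts, a replicate block, removal of doublets and of barcodes above 20% mitochondrial UMIs, Ttr minimums of 20 and 100 UMIs, 2 of 5 other markers required, thinning to the smallest library, Ttr left out, and each library left out.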

Additional observations from a re-analysis of the deposited data

How the results depend on the processing

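The count of 0 genes past an adjusted p of 0.01 in choroid plexus cells became 1 (Mbp) with no filter on low counts, ranged from 0 to 6 when 1 library was left out, and stood at 0 under the other alternatives listed above. With the replicate number as a block it was 0, with 13 genes at an unadjusted p of 0.05, and with crossed replicate numbers as a block, an alternative chosen after seeing the data, it was 11, of which 9 were mitochondrially encoded. The replicate numbers are not tied to preparation days in the labels. The interaction gave 1 gene (Mbp) with RLE size factors and 0 to 1 when 1 library was left out.

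The median log2 fold change of the tested duplicated segment genes (0.50, Cstb alone) was 0.95 with no filter on low counts, over more genes of the segment (Cstb 0.74). It was 0.0091 after thinning to the smallest library, 0.54 with the replicate block, and ranged from 0.15 to 0.82 when 1 library was left out, with 3 genes tested without WT replicate 1 and 2 when Dp(10)2Yey replicate 1 was left out. No segment gene could be fitted in the cells at or above 10% Ttr, so that value was not obtained. The difference in barcode share ranged from 0.0747 to 0.558 percentage points and that in Ttr share from -6.44 to 2.63 when 1 library was left out.

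Cst3 reversed in 2 alternatives chosen after seeing the data, to 0.034 with at least 1% mitochondrial UMIs and to 0.65 with at least 10% of UMIs from Ttr. For Cstb and the 10 genes named for smallest unadjusted p, over the alternatives other than the crossed numbers, 167 values kept their direction and side of the threshold, 4 passed it (all with 1 library left out), and 2 reversed. The 167 include the fit with doublets removed, which took out 0 cells and so repeats the main fit. Genes with too few UMIs to be fitted in an alternative have no value there and are not counted. With the crossed numbers mt-Nd5, mt-Nd2, Lars2 and Cst3 passed. The cause was not tested.

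Depth limits these results: WT replicate 1 gave 9 cells and 24767 UMIs, 578 genes were tested, and 1 gene of the segment was among them.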

Other observations

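Immediate early genes, which dissociation with enzymes is known to induce in brain cells, were nearly absent from the choroid plexus cells. Jun, Egr1 and Dusp1 had 0 UMIs in the 85 cells, where 3 counts of the 245876 UMIs is the limit that a count of 0 allows, while all other barcodes had 3016 CPM of Jun, 1876 CPM of Egr1 and 681 CPM of Dusp1. Fos and Junb had 2 UMIs each, or 8.13 CPM, against 2651 and 2251 CPM. The list of 26 genes that respond to dissociation summed to 3109, 1554, 2778 and 2476 CPM in the choroid plexus cells of the 4 libraries, led by the chaperone gene Hsp90aa1 with 252 UMIs. It summed to 22670 CPM in all other barcodes and 8828 CPM in ependymal barcodes. This contrast follows the rule that chose the cells and was not tested.

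Some genes of cilia were present as well. Rsph1, of the radial spokes, had 84 UMIs and Dynlrb2, a dynein light chain, 66, whereas the ciliary master factor Foxj1 had 11. The 14 ependymal genes summed to 1817, 1344, 1405 and 1329 CPM in the choroid plexus cells. They summed to 16954 CPM in the 104 ependymal barcodes and to 729 CPM in all other barcodes, which include the ependymal ones. In the choroid plexus cells the rule's own Tmem212 and Ccdc153 were at 0, and Fam183b and Sntn were at 0 too. Tmem212 and Ccdc153 are in the list and also chose the ependymal barcodes, so the contrast between the sums is partly fixed by the choice. The median choroid plexus cell held 5, 3, 0 and 3 UMIs of the list in the 4 libraries.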
